A study of Mus musculus and Canis lupus familiaris and Equus caballus with 9 samples.

Results

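The LIM homeodomain factor genes are the mouse genes Lhx1, Lhx2, Lhx3, Lhx4, Lhx5, Lhx6, Lhx8, Lhx9, Isl1 and Isl2. They were taken as a named list, with no measured value in the rule, and make up 10 of the 21896 protein-coding genes placed on the mouse genome. Each was searched for peaks of NRSF (also called REST) in RAW264.7 cells, an established mouse macrophage line of BALB/c origin at passages 13 to 15. Cells were fixed with 1% formaldehyde, and chromatin was sheared to 200 to 300 bp before chromatin immunoprecipitation and sequencing. The groups were 2 immunoprecipitated samples, made with the monoclonal antibody 12C11 to NRSF, and 1 input sample made with none. All came from this 1 line, which was derived from a virus-induced mouse tumour, with no treatment or genetic change named in the labels.

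NRSF is a zinc-finger repressor that recognises a long DNA element made of a left and a right part, and it is known for holding neuronal genes silent in cells that are not neurons. LIM homeodomain factors join a pair of zinc-binding LIM domains to a homeodomain that contacts DNA. The LIM domains bind adaptor proteins of the LDB family, which link the factors into larger complexes. Combinations of these factors are a well-known code of neuronal identity, as in the spinal cord, where Lhx3 and Isl1 act together in motor neurons and Lhx3 acts in certain interneurons without Isl1. Several members also act outside the nervous system, in the pituitary, kidney, heart, gonad and pancreas.

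The mouse list held 2357 peaks, each 400 bp wide, on mm10 (GRCm38). It gave positions only, with no score and no value per replicate, so no replicate error, peak strength or read depth could be given, and there is no test below. The list holds no expression values either, so macrophage identity could not be checked on marker genes. The rule for a gene with a peak was a peak midpoint inside the annotated span or at most 10 kb beyond either end.

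Of the 10 genes, 4 had a peak: Lhx2, Lhx3, Lhx4 and Lhx5. The other 6, Lhx1, Lhx6, Lhx8, Lhx9, Isl1 and Isl2, had none. Among all protein-coding genes, 1640 of 21896 had a peak by the same rule (7.49%, exact 95% interval 7.14 to 7.85%, which covers counting error only). Lhx3 and Lhx4 each had 2 peaks and Lhx2 and Lhx5 had 1 each, 6 distinct peaks in all. At least 2 peaks were found at 1.01% of protein-coding genes. The members were listed with earlier results of these data known, so the count is a description of these genes. With all peaks moved up the chromosome by 200 kb and the genes left in place, none of the 10 genes had one. With peaks moved down by 200 kb only Lhx1 had any, with 2. Of all protein-coding genes, 7.17% had a peak after the move up and 6.98% after the move down. At shares this low, few or none of any 10 genes would be met, so the moves do not test the count of 4.

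Among members with a listed start, Lhx3 was the 1 with a peak over its promoter, and this promoter held the whole NRSF element. Lhx3 is needed for pituitary development and for spinal motor neurons. The gene lies on the minus strand of chromosome 2, from 26200212 to 26208249, and its first listed start is at 26208249. One peak, at 26208075 to 26208475, spanned that start, with its midpoint 26 bp upstream. The part of this peak upstream of the start, 226 bases at chr2:26208250-26208475 (GRCm38.p6, minus strand, from RefSeq), is shown because it holds the element. Capitals mark letters that match it.

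Lhx3 peak, upstream part: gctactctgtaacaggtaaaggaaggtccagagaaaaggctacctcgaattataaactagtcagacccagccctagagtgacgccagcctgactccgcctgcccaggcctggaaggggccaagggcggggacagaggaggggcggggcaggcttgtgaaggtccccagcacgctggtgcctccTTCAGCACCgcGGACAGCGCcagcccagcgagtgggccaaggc

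The element was searched as its left part TTCAGCACC and its right part GGACAGCGC with 2 free bases between them, on both strands, and scored as the number of letters matched out of 18. The 18-letter match at Lhx3 lay at chr2:26208273-26208292 on the strand of the gene, 43 to 24 bases before the start. The peak's midpoint fell inside it. RefSeq promoter windows, which run from 250 bases before to 50 after a listed start, numbered 32851. The Lhx3 window was the 1 window among them with every letter (0.00304%). When 0 to 10 bases were allowed between the parts, 4 windows had every letter. A match describes the reference sequence, of strain C57BL/6J, and was not tested as a binding site.

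The best 20-base match of each other member in the promoter table is printed below Lhx3, from 1 window each, to show how far their promoters are from the element. Those of Gria2, an AMPA-type glutamate receptor subunit, and Syn1, the synaptic vesicle protein synapsin I, are windows of genes outside the family with a peak over the match. They are examples, picked after their values were seen. Of the 12 windows with 16 or more letters, 10 shared a base with a peak. Capitals again mark matching letters, and the middle bases are free. Only promoter windows were searched for the element. The second Lhx3 peak and the peaks of Lhx4 and Lhx5 met no window, so their sequences were not searched. Of the Lhx2 peak, only the part within the window of a noncoding gene inside the Lhx2 span was searched. The promoter scores of these members thus do not describe those peaks.

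Lhx3: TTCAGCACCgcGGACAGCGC

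Gria2: TTtAGCACCgcGGACAGCGC

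Syn1: TTCAGCACCgcGGtCAGaGC

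Isl1: TTCAGCcCCggcGcCtcCGC

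Lhx1: TcCAGCggCtcGGtCActGC

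Lhx6: TggAGCtCCcgGGACcGgcC

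Lhx9: ggCAGCtCCagGGAgAGgaC

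Lhx4: TgCAGCAaCagtGtCtcCtC

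Lhx2: cgCAGCgtCctGGcCtGgGC

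Lhx8: TTCcaCcCtctGGAaAaCaC

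Isl2: TTCgGgggaggGGgCtGCGC

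With 2 bases between the parts, Gria2 matched 17 letters and Syn1 16, whereas no member window other than that of Lhx3 matched more than 13. With 0 to 10 bases allowed, Isl2 matched 14, a level that 3.94% of windows then reached. The remaining member windows then matched 12 or 13. The counts below are for 2 bases. In all, 9 members had 13 promoter windows in the table, and Lhx5 was not in it. Apart from the first window of Lhx3, the other 12 matched 10 to 13 letters, and the median of all 32851 windows was 11. Isl1, with 13 letters, stood at a level reached by 3.56% of windows. Lhx1, Lhx9 and 1 window of Lhx6 had 12, a level that 19.2% of windows reached, and the other windows of Lhx6 had 11 and 10. The windows of Lhx2, Lhx4, Lhx8 and Isl2 and the second window of Lhx3 had 11.

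**Figure D1:**
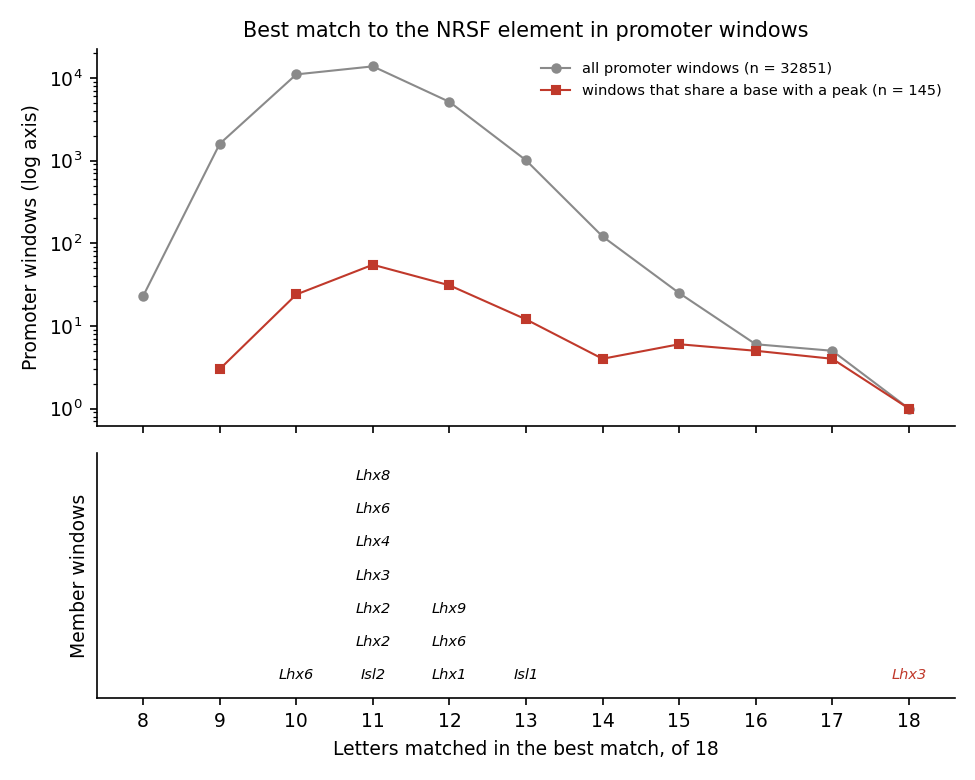
Best match to the NRSF element in promoter windows. The upper panel gives the number of windows (log axis) by letters matched of 18, for all 32851 windows and for the 145 that share a base with a peak; the lower panel names the members at the letters their windows matched, where Lhx3 stands at 18 and the other member windows at 10 to 13.

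Of the 32851 promoter windows, 145 shared a base with a peak (0.441%), and among the 13 windows of members only the first window of Lhx3 did. High matches were found mostly at peaks: of the 12 windows with 16 or more letters, 10 shared a base with a peak. Of the 145 windows with a peak, 63 matched 12 or more letters (43.4%, against 19.2% of all windows), and the rest matched fewer. Sharing a single base with a peak was enough here, and only bases of the window were scored. An element elsewhere in such a peak was thus not seen. A peak midpoint lay within 1 kb of a listed start in 237 of 17491 protein-coding genes with one (1.35%), and of the members in the table this held for Lhx3 alone.

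The second peak of Lhx3, at 26205125 to 26205525, lay inside the gene, 2924 bp downstream of the first start and 1250 bp downstream of the second. The midpoints of the 2 Lhx3 peaks were 2950 bp apart. The neighbouring gene Qsox2, which encodes a sulfhydryl oxidase, ends 875 bp from the Lhx3 span. The promoter peak was 849 bp and the inner peak 3799 bp from Qsox2, so both peaks counted for Qsox2 under the same rule. The listed start of Qsox2 lay 29124 bp from the promoter peak, compared with 26 bp for Lhx3.

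Lhx4, the closest relative of Lhx3 and likewise a pituitary and motor neuron factor, had a pair of peaks deep inside its span. The gene covers 155698031 to 155751726 on chromosome 1, on the minus strand, with 1 listed start at 155742027. Its peaks were at 155731215 to 155731615 and at 155722175 to 155722575. Their midpoints lay 10612 and 19652 bp downstream of the listed start and 9040 bp from each other. No other gene of any kind lay within 10 kb of either peak. The nearest protein-coding neighbour of both was Acbd6, 43941 and 34901 bp away. Both genes of this pair had 2 peaks, with one at a listed start in Lhx3 and none within 10 kb of it in Lhx4.

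Lhx2, which acts in cortex, eye and hair follicle, had 1 peak near its far end. The gene lies on the plus strand of chromosome 2 from 38339271 to 38369737. The peak, at 38368765 to 38369165, had its midpoint inside the span, 772 bp from the 3′ end and 29684 bp downstream of the first listed start. The long noncoding RNA gene Gm13584 lies wholly inside the Lhx2 span, on the opposite strand, and its start was 120 bp from this midpoint. All 300 bases of the Gm13584 promoter window fell within the peak, and their best match had 12 letters, a level that 19.2% of windows reached. Exon positions were not used here, so the peak cannot be placed in an exon or intron. The next peak was 49.2 kb away.

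Lhx5, which acts in forebrain and cerebellar development, had its 1 peak outside the span. The gene covers 120431886 to 120441457 on chromosome 5, and the peak lay at 120423995 to 120424395, 7691 bp below the lower end. This peak sat inside the spans of the long noncoding RNA genes Gm27199 and Gm31976. Sdsl, the nearest other protein-coding gene, was 33998 bp away, and the next peak 537 kb away. Lhx5 was the member just inside the 10 kb rule, and Lhx9, at 89.4 kb, the first outside it.

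**Figure D2:**
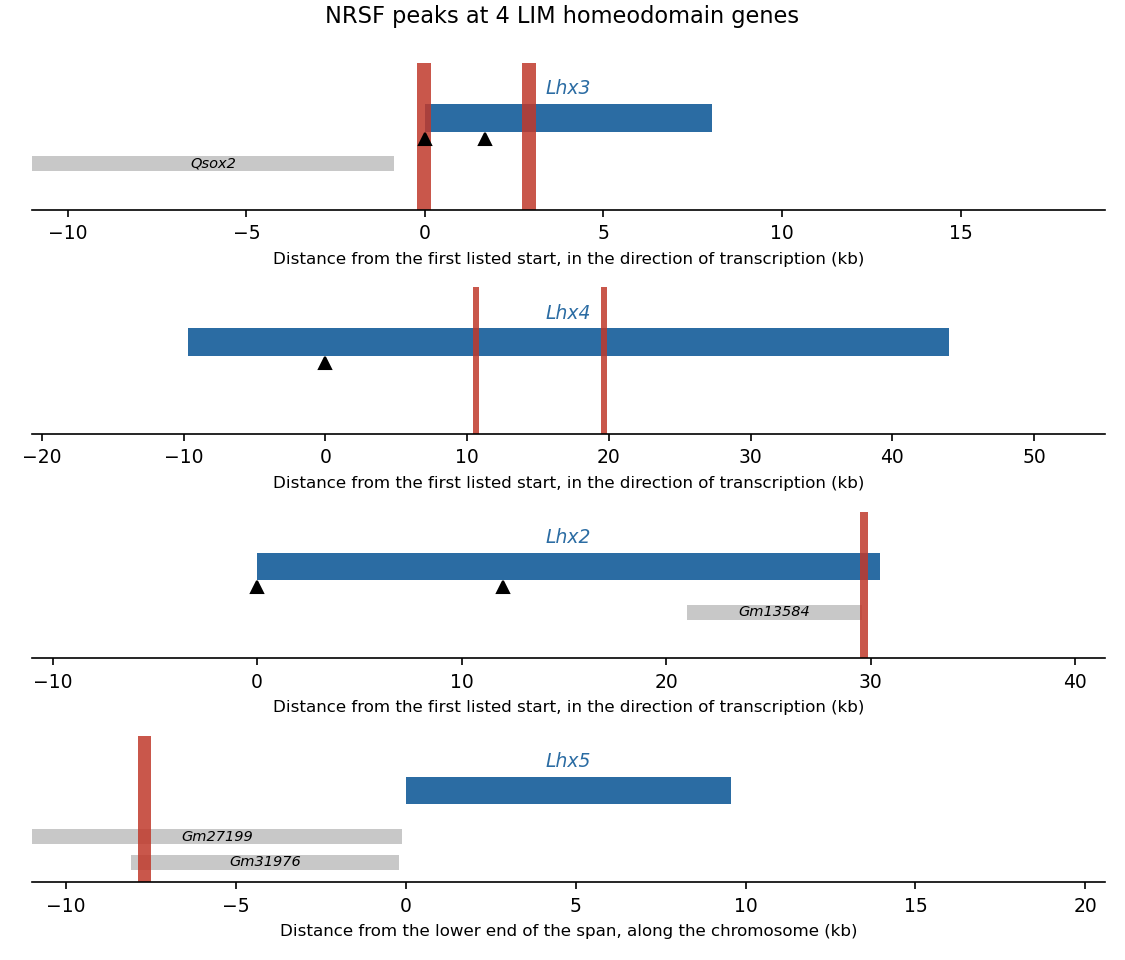
Positions of NRSF peaks (red bands, drawn at their 400 bp width) at the 4 members with one, with the member's span in blue, listed starts as triangles and other genes within 10 kb of a peak in grey, cut at the panel edge. The axis is the distance in kb from the first listed start, or for Lhx5 from the lower end of the span; of the 3 genes drawn with a start, Lhx3 has a peak at it.

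The members without a peak fell into those about 100 kb from one and those much further away. Lhx9, a gonad and limb factor, had its closest peak 89.4 kb above its span, and Lhx6, a factor of cortical interneurons, 93.2 kb below. For Lhx1, which acts in head and kidney formation, the distance was 137 kb. The span of Lhx8, a factor of forebrain cholinergic neurons, was 389 kb from a peak. Over all protein-coding genes the median distance was 298252 bp, with quartiles at 97169 and 773460.5 bp. A peak as close as that of Lhx9 was found at 23.5% of these genes, and one as close as that of Lhx8 at 56.9%.

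The Isl genes, known for motor neurons, heart progenitors and pancreatic islets, were the members furthest from any peak. The closest peak to Isl2 was 1116728 bp away, inside Lingo1, which encodes a neuronal membrane protein. For Isl1 it was 1294622 bp away. Of protein-coding genes, 82.9% had a peak as close as that of Isl2 and 85.5% as close as that of Isl1. No peak lay within 1 Mb of either gene, while a median of 2 peaks lay within 1 Mb of a protein-coding gene. Isl1 also had no protein-coding neighbour within 500 kb, whereas Isl2 had 9.

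**Figure D3:**
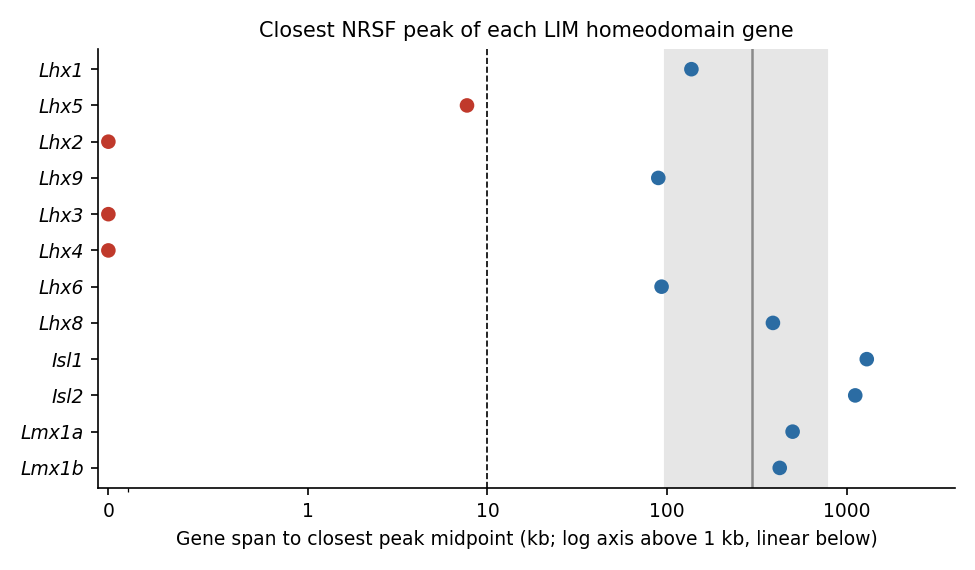
Distance from each gene span to its closest peak midpoint in kb (log axis above 1 kb, linear below), with members within 10 kb (dashed line) in red and others in blue. The grey line and band are the median and quartiles of all protein-coding genes; Lhx2, Lhx3 and Lhx4 stand at 0 and both Isl genes beyond the band.

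The genes form 5 pairs of close relatives, and the pairs divided differently. In 1 pair both had peaks (Lhx3 and Lhx4). In 2 pairs 1 gene had a peak, namely Lhx2 but not Lhx9, and Lhx5 but not Lhx1. Neither gene had one in the pairs Lhx6 with Lhx8 and Isl1 with Isl2.

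Members with and without a peak overlapped in span length. Spans ran from 8038 to 53696 bp in the 4 with a peak and from 7560 to 24273 bp in the 6 without, with medians of 20019.5 and 17536.5 bp. The median over all protein-coding genes was 17149 bp. Among the 10596 protein-coding genes whose span lies between those of the shortest and longest member, 6.54% had a peak. Within 1 Mb, the 4 genes had 3 to 6 peaks and the 6 had 0 to 5, and the median of protein-coding genes was 2. The counts of the 4 include the peaks that placed them in this group, so they are higher in part by the split itself. The number of protein-coding neighbours within 500 kb also overlapped, from 5 to 28 for the 4 and from 0 to 14 for the 6. Promoter windows of members had a median GC content of 65.7% (47.0 to 74.7%), against a median of 52.7% over all windows.

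Other reaches changed the list by Lhx5 up to 50 kb. Inside the span alone, 3 members had a peak (Lhx2, Lhx3 and Lhx4), as did 4.43% of protein-coding genes. Within 1 kb and within 5 kb the same 3 members had one, against 5.0% and 6.20%. Within 20 kb and 50 kb it was the 4 members named first, against 9.89% and 16.2%. At 100 kb, Lhx6 and Lhx9 joined them, 6 of 10 against 25.4%. At 1000 kb the members (80.0%) stood at the level of all protein-coding genes (80.5%).

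**Figure D4:**
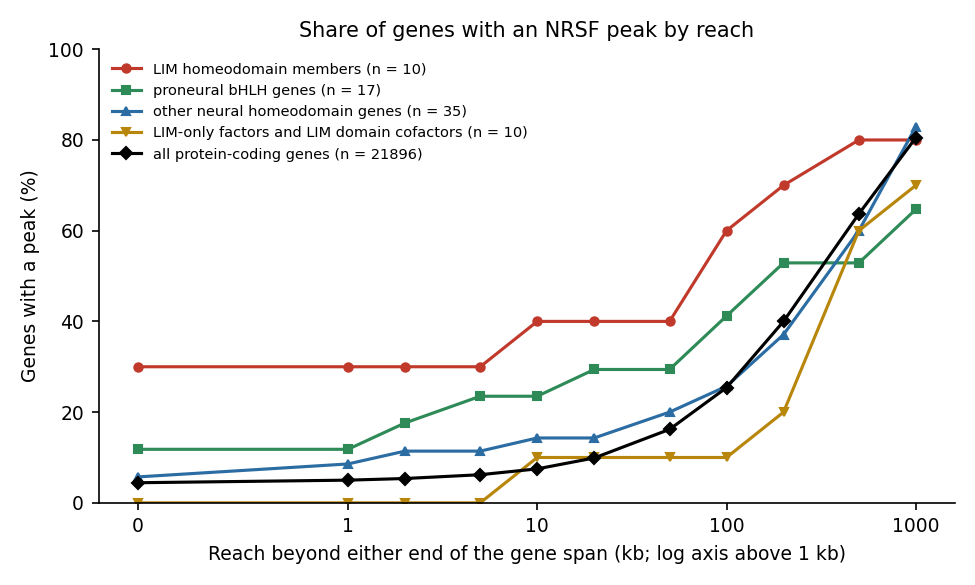
Percent of genes with a peak midpoint in the span or within the reach on the x axis (kb, log axis above 1 kb), for the 10 members, 3 lists of related genes and all protein-coding genes. The members stand at 30.0 to 40.0% from 0 to 50 kb, where all protein-coding genes go from 4.43 to 16.2%. At 1000 kb the members (80.0%) and all protein-coding genes (80.5%) meet, and the lists of related genes stand at 64.7 to 82.9%.

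Genes that work with the LIM homeodomain factors were counted by the same rule, against the 7.49% of all protein-coding genes. The other LIM homeodomain genes, Lmx1a and Lmx1b, which act in midbrain dopamine neurons, had none. Their closest peaks were 500 and 424 kb away. Of the 10 LIM-only factors and LIM domain cofactors 1 had a peak, Lmo1, at 8920 bp. The adaptor genes Ldb1 and Ldb2 had none.

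Among 8 partners and targets in motor neurons, 3 had a peak. The peak of Neurod4, a proneural factor, lay inside its span. Chat, the enzyme of acetylcholine synthesis, and Slc18a3, the vesicular acetylcholine transporter, lie at the same locus and had 1 peak, 1876 and 2935 bp from their spans. Mnx1, a motor neuron homeodomain factor, had none. In the list for pituitary and islets 1 of 15 genes had a peak, Pomc, the precursor of corticotropin, with the peak inside its span.

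Among other neural homeodomain factors 5 of 35 genes had a peak, and among proneural bHLH factors 4 of 17. The members had 4 of 10, and the share of all protein-coding genes was 7.49%. Median spans were 5.87 kb for homeodomain genes, 2.90 kb for bHLH genes and 17.5 kb for members, so the stretches searched differed in length. With gene ends only, within 10 kb, the counts were 5, 4 and 3. The homeodomain genes with a peak were Barhl1 and Prrxl1, inside their spans, and Pou4f3, Pou4f2 and Pou4f1, at 202, 1444 and 7640 bp. All 3 Pou4f genes, which act in sensory neurons, thus had a peak. The bHLH genes were Neurod1 and Neurod4, inside their spans, and Neurod2 and Neurog3, at 1230 and 3452 bp. Counts of this size were not tested between families.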

How the data were processed

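The authors deposited, per the labels, 1 list of peak positions for both mouse immunoprecipitated samples. Bowtie 0.12.8 and MACS 1.4.2 are named in the submitters' processing notes without a role, as is the build GRCm38 (mm10). The sources used here do not give the peak threshold, how the input entered, how replicates were joined, or whether positions count from 0 or 1. All starts are multiples of 5, so a midpoint is no finer than that. The 3 other lists, for dog, horse and human, were not used here.

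Gene spans came from the RefSeq table of GRCm38.p6, and starts and strands from its promoter windows. All 97 list entries matched a gene, 1 by a synonym. The members and lists were chosen with earlier results of these data known. Named were all members, both Lmx1 genes, list genes with a peak (up to 5 a list) and genes within 10 kb of a member's peak. Ldb1, Ldb2, Mnx1, Gria2, Syn1, Lingo1 and the flanking genes were named after their values were seen. The element's letters are from general knowledge, and that search was added after the peaks were seen. Counting and search were tested on simulated data. Python 3.11.15 with numpy 2.4.6, pandas 2.3.3 and scipy 1.17.1 was used.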

Additional observations from a re-analysis of the deposited data

How the results depend on the processing

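No paired analysis was possible because the 2 mouse replicates share 1 list and have no values of their own, so leaving out a replicate could not be run either, and without scores a stricter peak threshold could not be tried. Counting any base of a peak left the 4 members as they were. The share of protein-coding genes with a peak was 5.0%, 6.20%, 9.89% and 16.2% at reaches of 1, 5, 20 and 50 kb. It was 5.63% with gene ends only, 8.53% with each peak given to its nearest protein-coding gene and 6.54% for genes with spans in the members' range. For genes of every kind it was 5.01%, and with peaks moved down by 200 kb it was 6.98%. Within 1 kb of a listed start, a setting added after the data were seen, it was 1.35%. With gene ends only, Lhx4 was lost, and no pair had peaks at both genes (0, against 1). With peaks given to the nearest protein-coding gene, Lhx1 was gained and 2 pairs had both. Peaks moved by 200 kb gave 0 members and 0 peaks (up) and 1 member with 2 peaks (down), with 0 pairs in both.

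In the other lists, a reach of 1 kb left 0 cofactors, 1 motor neuron gene, 3 homeodomain and 2 bHLH genes, and 5 kb left 0 cofactors. Moved peaks met 0 genes of each list, apart from 2 pituitary and islet genes when moved down by 200 kb. That list also had 2 genes at 50 kb and with nearest genes. All letters of the element, as added after the data were seen, were found in 4 windows with 0 to 10 bases between the parts, in 122 for the left part alone and in 133 for the right part alone.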

Other observations

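In 2 of the 5 pairs of close relatives, the genes around the members were related by name. The protein-coding gene next to Lhx3 on its upper side is Qsox2, at 875 bp, and next to Lhx4 Qsox1, at 26429 bp, both sulfhydryl oxidase genes. The protein-coding genes flanking Lhx2 are Dennd1a at 51861 bp and Nek6 at 114126 bp. Lhx9 is flanked by Nek7 at 205429 bp on its lower side and by 2310009B15Rik at 3140 bp on its upper side, and its closest peak was 25.5 kb from Dennd1b, which lies further along that upper side. The other 3 pairs had no flanking genes related by name. Of the flanking genes of these 4 members, Qsox2 had 3 peaks by the 10 kb rule, 2 of them shared with Lhx3, and Acbd6, on the lower side of Lhx4 at 10557 bp, had 1. The others had 0.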
